A study of Homo sapiens with 8 samples.

Results

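The genes described here are 10 transcripts that rise when the ERK mitogen-activated protein kinase pathway is active, most of which then hold that pathway back: the phosphatases DUSP1, DUSP4, DUSP5 and DUSP6, the inhibitors SPRY2, SPRY4 and SPRED1, the transcription factors ETV4 and ETV5, and PHLDA1. They were chosen by name from knowledge of the pathway, with earlier results of these data known, and all 10 of them are among the 25341 gene symbols of the deposited table and passed the filter on low values. RNA-seq was measured in MCF10A cells, a spontaneously immortalized, non-malignant human mammary epithelial line, grown inside 1 of 4 hydrogels until day 7, and each gel has 2 libraries. Soft IPNs and stiff IPNs are interpenetrating networks of reconstituted basement membrane (rBM) and alginate, of which the stiff ones were crosslinked with calcium. By their names, soft col:rBM gels held rBM with collagen-1 (col-1), and stiff col gels held col-1 without rBM. A comparison of stiff col with another gel then changes several components at once. No drug, transgene or deletion was used in these libraries, and all 4 gels hold the same line, which stands for normal mammary epithelium only as 1 immortalized line. According to the methods, replicates 1 and 2 are independent trials, and the culture medium held EGF, an activator of the ERK pathway, and hydrocortisone, a glucocorticoid.

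In the ERK pathway a growth factor receptor acts through RAS, RAF and MEK to phosphorylate ERK, which then drives transcription of its own inhibitors. DUSP proteins remove the phosphates from MAP kinases, Sprouty and SPRED proteins act further up, between the receptor and RAF, and the ETS factors ETV4 and ETV5 carry the signal on to other genes. The transcript levels of such genes are widely read as a measure of pathway output, although several of them also answer to other signals, such as DUSP1 to stress and to glucocorticoids. Phosphorylated ERK itself was not measured in these libraries.

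The region before a RefSeq start of DUSP1 and of SPRY4 is shown. In the fit of all libraries with the trial as a term, these genes alone among the 10 passed the test between gels, as described further on. Each line gives the 250 bases before the RefSeq transcription start, 5′ to 3′ on the strand of the gene (GRCh38.p14), at chr5:172771196-172771445 on the minus strand for DUSP1 and at chr5:142324248-142324497 on the minus strand for SPRY4. Capitals mark the cAMP response element (CRE) motif TGACGTCA.
DUSP1: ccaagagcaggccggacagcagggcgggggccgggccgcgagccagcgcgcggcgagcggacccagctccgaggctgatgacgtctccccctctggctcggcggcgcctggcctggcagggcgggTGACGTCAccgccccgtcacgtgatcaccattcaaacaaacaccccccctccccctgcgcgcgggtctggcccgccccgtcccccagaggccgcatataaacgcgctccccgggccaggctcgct
SPRY4: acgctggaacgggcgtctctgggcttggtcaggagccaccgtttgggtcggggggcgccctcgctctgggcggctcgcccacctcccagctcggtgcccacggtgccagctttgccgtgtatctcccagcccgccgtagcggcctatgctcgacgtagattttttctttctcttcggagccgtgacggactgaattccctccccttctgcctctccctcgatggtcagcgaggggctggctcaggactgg
The CRE motif lies 125 to 118 bases before the start of DUSP1, and 1.65% of the 35114 RefSeq windows of this length hold it. No other gene of the 6 with an entry in the RefSeq table had it (DUSP1, DUSP6, SPRY2, SPRY4, SPRED1 and PHLDA1). A search of both strands for the AP-1 motif TGANTCA (in 6.57% of all windows), the ETS motif CCGGAAGT (3.42%), the SRF CArG box (1.16%) and the CIC motifs TGAATGAA (1.4%) and TGAATGGA (0.83%) found none in the windows of these 6 genes. The GC box GGGCGG, present in 42.64% of all windows, was found in 5 of the 6 genes, 4 times in DUSP1 and 1 time in SPRY4. These matches are a description of the letters and not of binding. DUSP5, ETV4 and ETV5 have no entry, and DUSP4 was not searched here. The 6 genes had 8 windows, since SPRY2 has more than 1 listed start. A window need not lie before the main start of its gene, and starts that are not listed were not searched.

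The deposited values are normalized counts, that is, reads per gene divided by 1 factor per library by the authors and rounded to whole numbers. Reads on genes per library were not measured here but estimated, from the summed normalized counts and an estimated scaling factor for each library. These estimates ranged from 13065615 to 18583116, the lowest in stiff IPN replicate 2, and their digits do not reflect their precision. The paper states a higher sequencing depth after filtering, and the reason for the gap was not tested. By this estimate 3 reads, taken as the limit of detection, correspond to 2.41 to 3.72 normalized counts. Each of the 10 genes lies far above that in each library. Of the markers listed for mammary epithelium, 6 of 6 basal and 4 of 4 general epithelial genes were detected. Of 12 markers of other cell types, 5 passed the filter. PTPRC (blood) was at 0 in all libraries, and of the fibroblast markers COL1A2 was at 0 while DCN was at 526 to 1217 and COL1A1 at 168 to 333 normalized counts. A gene was called at an adjusted p under 0.05 in limma's test on log2(normalized count + 1), with Benjamini-Hochberg adjustment over the 13349 genes tested. Without a block for the trial, no gene at all was called in a comparison of gels, so calls with the trial as a block (the replicate block) are given beside it. For any single gene, the smallest two-sided p of an exact permutation test is 0.333 with this number of libraries. Since the gels hold whole cell populations, fewer cells with a transcript and less of it per cell cannot be told apart.

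The genes spanned a wide range of levels. Per kilobase of the canonical transcript, DUSP1 (hg19 chromosome 5, 172195099 to 172198198, minus strand) was the highest at a mean of 5162 normalized counts per kb over the 8 libraries. DUSP6 (chromosome 12, 89741012 to 89746278, minus) followed at 1108 per kb, PHLDA1 (chromosome 12, 76419227 to 76425556, minus) at 923 and DUSP4 at 533. The next were DUSP5 (chromosome 10, 112257665 to 112271291, plus) at 303 per kb and SPRY4 (chromosome 5, 141689992 to 141706020, minus) at 279. ETV5 (chromosome 3, 185764103 to 185828107, minus) was at 214 per kb, ETV4 (chromosome 17, 41605212 to 41656988, minus) at 185, SPRY2 (chromosome 13, 80910111 to 80915261, minus) at 168 and SPRED1 (chromosome 15, 38545037 to 38649450, plus) at 96.0. ETV4 overlaps the gene DHX8 on the opposite strand, which had up to 1185 normalized counts, DUSP6 and PHLDA1 overlap lncRNA genes on the opposite strand, and ETV5 overlaps DGKG (up to 16) on its own strand. Whether the counting used strand is not given in the sources used here. The plot of levels by library shows each gene in each gel.

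**Figure D1:**
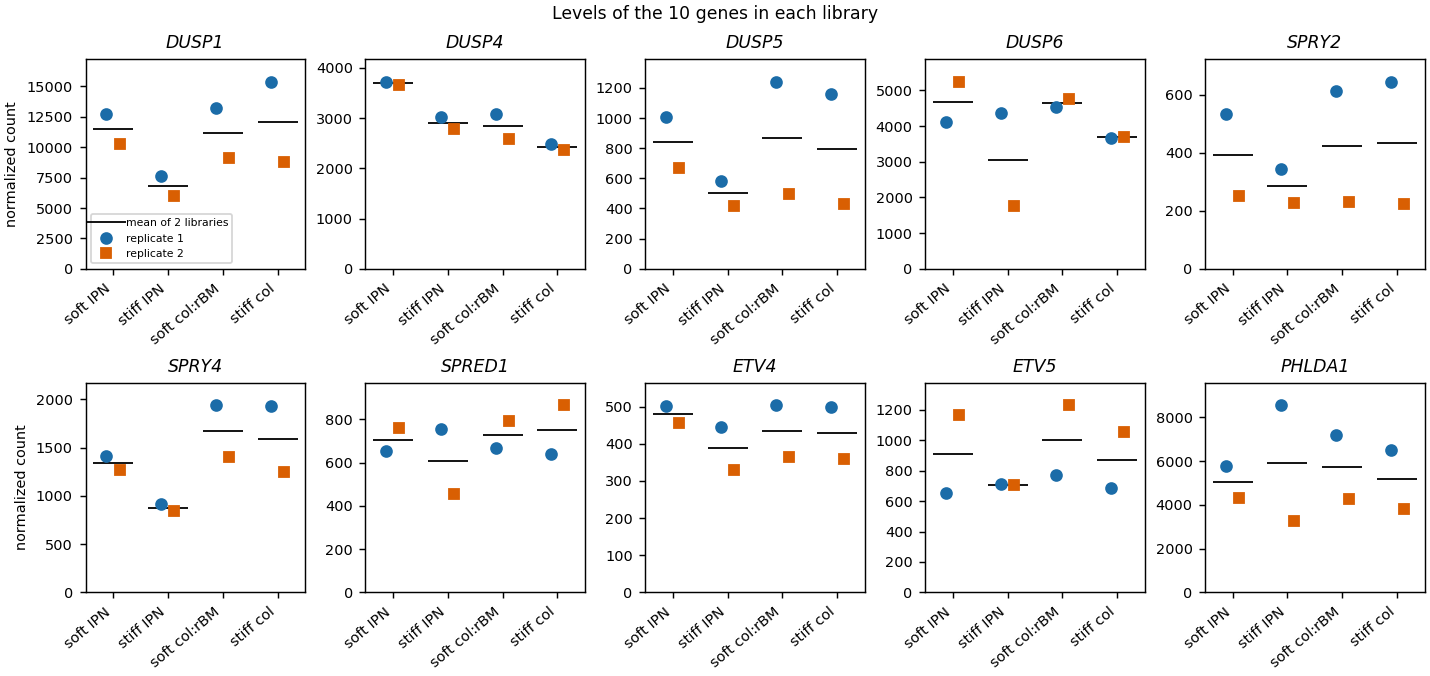
Normalized counts (linear axis from 0) of the 10 genes by gel. Circles are replicate 1, squares replicate 2 and lines the mean of the 2 libraries. DUSP1 and SPRY4 have both stiff IPN libraries below the other 6, and SPRY2 and PHLDA1 have each replicate 2 library below each replicate 1 library.

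Whether a stiffer basement membrane gel goes with another level of these transcripts was asked by comparing stiff with soft IPN. DUSP1, which dephosphorylates JNK and p38 as well as ERK in the nucleus, was lower in the stiff IPNs. Its normalized counts were 12734 and 10263 in the soft IPNs (replicates 1 and 2), 7602 and 6002 in the stiff IPNs, 13212 and 9126 in soft col:rBM, and 15406 and 8782 in stiff col. The stiff IPN libraries are thus the lowest 2 of the 8, and the other gels overlap each other. Against soft IPN, the log2 fold change of stiff IPN was -0.76 (fold 0.591, n = 2 per gel), at -0.74 in replicate 1 and -0.77 in replicate 2. Its SE was 0.333 without the block (adjusted p = 0.531 from limma) and 0.167 with it (adjusted p = 0.0489). With the block the call was lost without soft IPN replicate 1 (adjusted p = 0.0858) or soft IPN replicate 2 (adjusted p = 0.448), and in a blocked fit of the IPNs alone (adjusted p = 0.0894), all from limma.

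SPRY4, a Sprouty protein that acts on signalling from receptor to RAF, had a similar pattern and did not pass the test between the IPNs. It was at 1415 and 1270 normalized counts in the soft IPNs, 917 and 839 in the stiff IPNs, 1940 and 1398 in soft col:rBM, and 1926 and 1249 in stiff col. Here too both stiff IPN libraries lie below the other 6, which is so for 2 of the 10 genes and for 7.53% of all genes tested. The log2 fold change was -0.61 (-0.63 and -0.60 in replicates 1 and 2), with limma's adjusted p at 0.530 without the block and 0.0749 with it.

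Among the other phosphatases, DUSP5, an inducible nuclear phosphatase specific to ERK, was at 1010 and 666 normalized counts in the soft IPNs, 583 and 416 in the stiff IPNs, 1242 and 495 in soft col:rBM, and 1159 and 427 in stiff col. Stiff against soft IPN, its log2 fold change was -0.73 (-0.79 and -0.68 by replicate), and it was not called with the block (limma, adjusted p = 0.126). DUSP6, the cytoplasmic phosphatase of ERK, had 4107 and 5249 normalized counts in soft IPN against 4363 and 1763 in stiff IPN. In soft col:rBM it had 4545 and 4751 and in stiff col 3669 and 3704. The value of 1763 in stiff IPN replicate 2, the library with the fewest reads by estimate, stands below each other library. The replicates went opposite ways, with a log2 fold change of 0.09 in replicate 1 and -1.57 in replicate 2. The estimate over both was -0.74, and -0.09 without stiff IPN replicate 2. DUSP4, a nuclear phosphatase of ERK, JNK and p38, was at 3728 and 3659 in the soft IPNs, 3015 and 2781 in the stiff IPNs, 3084 and 2590 in soft col:rBM, and 2484 and 2359 in stiff col. From replicate 1 to replicate 2 the log2 fold change of DUSP4 was -0.03 in soft IPN, -0.12 in stiff IPN, -0.25 in soft col:rBM and -0.07 in stiff col. Its log2 fold change between the IPNs was -0.35 (SE 0.176, limma adjusted p = 0.560, and 0.161 with the block).

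Of the inhibitors and factors that remain, none was called. SPRY2, like SPRY4 a brake on receptor signalling, had 534 and 252 normalized counts in the soft IPNs, 344 and 227 in the stiff IPNs, 613 and 230 in soft col:rBM, and 645 and 223 in stiff col. SPRED1, which brings the RAS inactivator neurofibromin to the membrane, had 653 and 758 in the soft IPNs, 757 and 454 in the stiff IPNs, 667 and 791 in soft col:rBM, and 640 and 866 in stiff col. For SPRY2 the replicates differed more than the gels, and SPRED1 was in all gels within 454 to 866. The ETS factor ETV4 had 503 and 455 normalized counts in the soft IPNs, 445 and 330 in the stiff IPNs, 504 and 365 in soft col:rBM, and 500 and 359 in stiff col. Its relative ETV5 had 655 and 1166 in the soft IPNs, 711 and 707 in the stiff IPNs, 775 and 1232 in soft col:rBM, and 685 and 1056 in stiff col. PHLDA1, an inducible protein that can bind membrane lipids and has been linked to both cell death and survival, had 5773 and 4317 in the soft IPNs, 8558 and 3275 in the stiff IPNs, 7176 and 4253 in soft col:rBM, and 6490 and 3828 in stiff col. The highest and the lowest of the 8 PHLDA1 values were thus the 2 stiff IPN libraries. Log2 fold changes from soft to stiff IPN were -0.39 for SPRY2, -0.26 for SPRED1, -0.32 for ETV4, -0.30 for ETV5 and 0.08 for PHLDA1, and those of SPRED1, ETV5 and PHLDA1 differed in sign between the trials.

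As a group, 9 of the 10 genes had a negative log2 fold change between the IPNs (stiff against soft), with a median of -0.37 against -0.01 over all genes tested. Without the block 0 of the 10 were called, where 0% of all genes were called by limma, and SPRY4 alone had an unadjusted p under 0.05 (9.33% of all genes). With the block 1 of the 10 was called, DUSP1, where 3.83% of all genes were called (2.13% as lower). The libraries of the stiff IPNs lay wholly below those of the soft IPNs for 5 of the 10 genes (DUSP1, DUSP4, DUSP5, SPRY4 and ETV4), and for 21.4% of all genes. The members share a pathway, so they are no independent observations of it. Leaving out either stiff IPN library moved the group's result. Without stiff IPN replicate 1 and with the block, DUSP1, DUSP6, SPRED1 and ETV5 were called, where 2686 genes in all were, and without stiff IPN replicate 2 DUSP1, DUSP5, SPRY2 and SPRY4 were, where 1087 genes in all were, against 511 with all libraries.

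**Figure D2:**
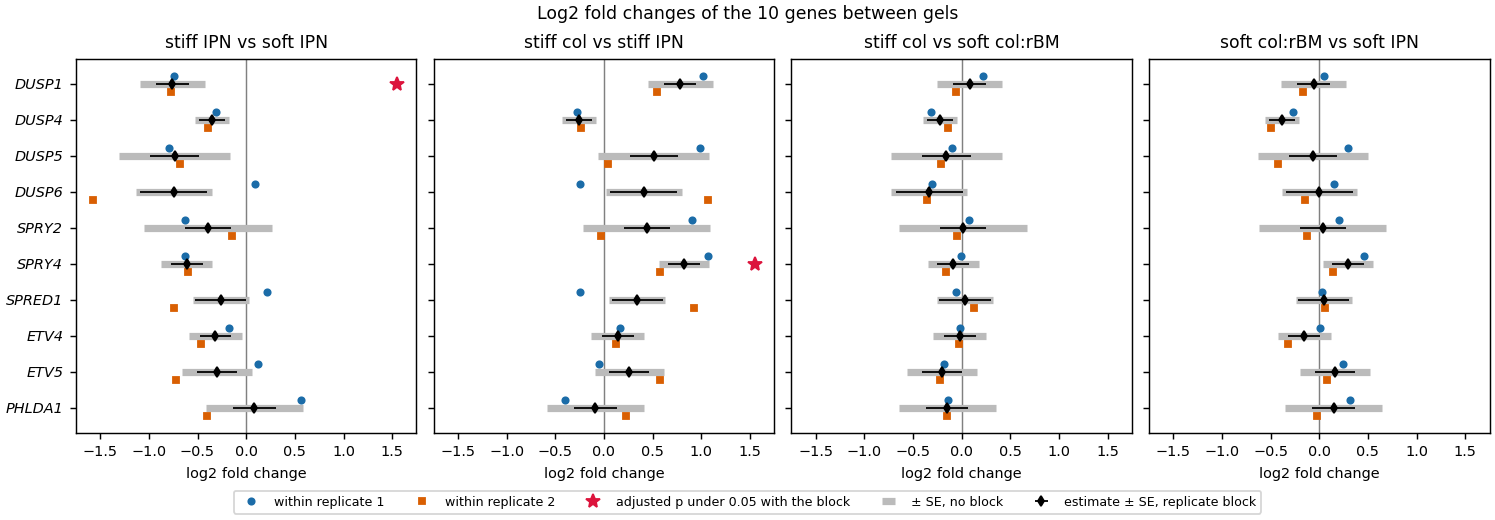
Log2 fold changes of the 10 genes in the 4 comparisons of gels. Diamonds are estimates with the SE of the fit with the replicate block, grey bars the SE without it, circles and squares the fold change within replicate 1 and replicate 2, and stars the 2 calls with the block (DUSP1 at -0.76 between the IPNs and SPRY4 at 0.82 from stiff IPN to stiff col). DUSP6 is the gene whose replicates lie farthest apart in the comparisons with stiff IPN.

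Stiff col was compared with stiff IPN to ask how a stiff gel of col-1 differs from one of basement membrane. These comparisons share the stiff IPN libraries, so opposite signs in them are no separate result. SPRY4 was higher in stiff col, with a log2 fold change of 0.82 (fold 1.77, and 1.07 and 0.57 in replicates 1 and 2), an SE of 0.260 and limma's adjusted p at 0.601 without the block. With the block the SE was 0.163 and it was called (limma, adjusted p = 0.0455), which was lost without stiff col replicate 1 (adjusted p = 0.465) or stiff col replicate 2 (adjusted p = 0.0943), and in a blocked fit of these gels alone (adjusted p = 0.130). DUSP1 had a log2 fold change of 0.78 (1.02 and 0.55) and was not called (limma, adjusted p = 0.784, and 0.0546 with the block). In both genes each stiff col library lay above each stiff IPN library, as in 15.1% of all genes tested. DUSP4 had a log2 fold change of -0.26, with both stiff col libraries below both stiff IPN libraries (15.8% of all genes).

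Of the other genes, DUSP5 (0.51), DUSP6 (0.41), SPRY2 (0.44), SPRED1 (0.34), ETV4 (0.14) and ETV5 (0.26) had positive log2 fold changes and PHLDA1 (-0.09) a negative one, none of them called. The median over the 10 genes was 0.38 against 0.00 over all genes tested, with 8 positive. With the block 1 of the 10 was called, where 2.47% of all genes were called (1% as higher), and without it 0 of the 10 and 0% of all genes were, while DUSP1 and SPRY4 had an unadjusted p under 0.05 (6.28% of all genes). In replicate 1 alone DUSP6, SPRED1 and ETV5 had the opposite sign, so these estimates rest on replicate 2. Those of DUSP5 (0.99 in replicate 1 and 0.04 in replicate 2) and SPRY2 (0.90 and -0.03) rest on replicate 1. Calls from fits that leave 1 stiff IPN library are not given here either.

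Between the collagen gels, which differ in stiffness and also in rBM, none of the 10 genes passed the test in the fits of all libraries. Log2 fold changes from soft col:rBM to stiff col ran from -0.33 for DUSP6 to 0.08 for DUSP1, with a median of -0.12, and 0 of the 10 genes were called with or without the block, as for 0% of all genes in both fits. DUSP4 (-0.22) and DUSP6 (-0.33) had both stiff col libraries below both soft col:rBM libraries, which was so for 9.5% of all genes tested. None of the 10 had an unadjusted p under 0.05 by limma without the block, where 140 genes (1.05%) had. A blocked fit of these gels alone, chosen after seeing the data, called 972 of the 13349 genes tested and 1 of the 10. This was DUSP6 (limma, adjusted p = 0.00953, with -0.31 in replicate 1 and -0.36 in replicate 2). In the blocked fit of all libraries its unadjusted p was 0.361 by limma.

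Between the soft gels, where col-1 takes the place of alginate, none of the 10 passed it either. Log2 fold changes from soft IPN to soft col:rBM ran from -0.39 for DUSP4 to 0.30 for SPRY4, with a median of 0.02 and 0 of the 10 called in either fit, as for 0% of all genes tested. Without the block 0 of them also had an unadjusted p under 0.05 by limma, where 1.42% of all genes had. DUSP4 had the smallest adjusted p (limma with the block, 0.927), and its soft col:rBM libraries, at 3084 and 2590 normalized counts, lay below the soft IPN libraries at 3728 and 3659 (10.4% of all genes). Over the 4 gels DUSP4 had its own order. It was highest in soft IPN and lowest in stiff col, where both libraries lay below the other 6 (2.04% of all genes), while stiff IPN and soft col:rBM overlapped.

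The change from soft to stiff was compared between the 2 kinds of gel by subtracting the log2 fold change of the IPNs from that of the collagen gels. This is called the difference of stiffness effects below. The collagen gels also differ in rBM and col-1, and the IPNs in added calcium, so it cannot be assigned to stiffness alone. DUSP1 had the largest difference of the 10, at 0.84 on the log2 scale (SE 0.471 without the block, SE 0.236 and limma adjusted p = 0.344 with it). SPRY4 was at 0.52, and PHLDA1 was the only gene of the 10 with a negative difference, at -0.23. The median was 0.35, and 0 of the 10 were called with the block (0.015% of all genes) or without it (0%), nor did any have an unadjusted p under 0.05 by limma without it (2.08% of all genes). A test for any difference among the 4 gels called 0 of the 10 with the block (1.56% of all genes) and without it (0%), where SPRY4 alone had an unadjusted p under 0.05 (5.24% of all genes), and with the block the smallest adjusted p values were those of SPRY4 (limma, 0.0720) and DUSP1 (0.0918).

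Replicate 2 was compared with replicate 1 as well, with the gel as a term, and 6 of the 10 genes were called, 5 as lower and 1 as higher, where 27.1% of all genes were called (14.4% as lower and 12.7% as higher). SPRY2 was lower in replicate 2 in 4 of 4 gels, with values of 223 to 252 normalized counts against 344 to 645 in replicate 1 and a log2 fold change of -1.15 (SE 0.167, limma adjusted p = 0.00467). DUSP5 was lower by 0.96 on the log2 scale (416 to 666 against 583 to 1242, limma adjusted p = 0.00862) and PHLDA1 by 0.83 (3275 to 4317 against 5773 to 8558, limma adjusted p = 0.00898). All replicate 2 libraries thus lay below all replicate 1 libraries for SPRY2 and PHLDA1, and the same was so for 10% of all genes tested. DUSP1 fell by 0.50 (limma adjusted p = 0.0194) and ETV4 by 0.38 (0.0414), both in 4 of 4 gels. ETV5 went the other way at 0.53 (limma adjusted p = 0.0313), higher in replicate 2 in 3 of 4 gels and at -0.01 in the stiff IPNs. SPRY4 (-0.35, adjusted p = 0.0581 from limma), DUSP6 (-0.22), DUSP4 (-0.12) and SPRED1 (0.04) were not called. Over 15 alternatives, the calls of SPRY2, DUSP5 and PHLDA1 held in 15, that of DUSP1 in 11, that of ETV5 in 8 and that of ETV4 in 7. The last 3 were lost without any of the 4 collagen gel libraries (limma adjusted p from 0.0947 to 0.210), and those of ETV4 and ETV5 also without either soft IPN library (0.0616 to 0.139). What differed between the trials is not given in the sources used here.

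**Figure D3:**
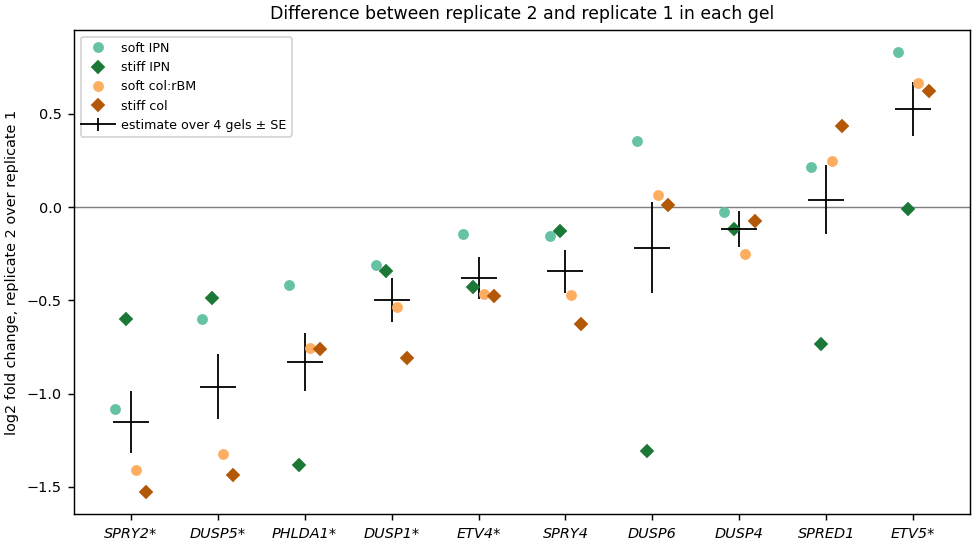
Log2 fold change of replicate 2 over replicate 1 for the 10 genes, by gel. Lines are estimates over the 4 gels with their SE, symbols single gels, and asterisks the 6 genes called by limma. SPRY2, DUSP5, PHLDA1, DUSP1 and ETV4 lie below 0 in each gel. The stiff IPN symbols of DUSP6, SPRED1, ETV5 and PHLDA1 lie apart below the other 3 gels, and that of SPRY2 lies apart above them.

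Related genes were counted in lists taken from general knowledge. Of 13 other MAP kinase phosphatase, Sprouty and SPRED genes, 12 were tested and 0 were called between the IPNs with the block, with 6 positive, 6 negative and a median log2 fold change of 0.04. Over all genes tested 3.83% were called, and the median was -0.01. DUSP8, a phosphatase of JNK and p38, was at 30 and 113 normalized counts in the stiff IPNs against 8 and 8 in soft IPN. SPRY1, the third Sprouty gene expressed here, was at 56 and 39 in the stiff IPNs against 61 and 199 in soft IPN. DUSP7, close in kind to DUSP6, was at 2142 and 1896 in the stiff IPNs against 2274 and 3222 in soft IPN. SPRY3 was at 0 or 1 in each library. The fall of DUSP1 in stiff IPN was thus not matched by a call in any other tested phosphatase of this list.

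Between the IPNs 3.83% of all genes tested were called with the block (2.13% as lower), with a median of -0.01. The 27 genes listed for the pathway from receptor to ERK and for the proteins ERK acts on had a median of -0.19. Of them 2 were called, both lower. Both act below ERK: they were RPS6KA2, a kinase activated by ERK (log2 fold change -1.07, limma adjusted p = 0.0354), and ELK1, an ETS factor phosphorylated by ERK (-0.78, 0.0474). From stiff IPN to stiff col 1 of the 27 was called, the RAF kinase BRAF, which was higher (1.16, limma adjusted p = 0.0473). The median of the 27 was 0.25 against 0.00 over all genes tested, of which 2.47% were called (1% as higher). Of 9 JNK and p38 kinases 0 were called in any comparison of gels, with a median of 0.10 between the IPNs.

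Other genes known to be induced by ERK went both ways. Of 18, 2 were higher and 2 lower in stiff than in soft IPN with the block, and the median was -0.12. Over all genes tested 3.83% were called (2.13% as lower), and the median was -0.01. HBEGF, a ligand of the EGF receptor, was higher at 708 and 1067 normalized counts in the stiff IPNs against 162 and 273 in the soft IPNs (log2 fold change 2.04, limma adjusted p = 0.0377 with the block). PLAU, the urokinase protease, was also higher (1.05, limma adjusted p = 0.0189). FOS and EGR1, immediate early transcription factors, were lower, at -1.36 (limma adjusted p = 0.0255) and -0.93 (0.0468). In stiff col HBEGF (-2.15) and PLAU (-0.94) were lower than in stiff IPN and AREG, another ligand of the EGF receptor, was higher (2.38, limma adjusted p = 0.0473). Without the block none of these genes was called.

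The 8 glucocorticoid response genes, listed because DUSP1 is also one, had a median of -0.96 from soft to stiff IPN, against -0.01 over all genes tested. With the block 3.83% of all genes were called (2.13% as lower), and of the 8 genes 2 were, both lower in stiff IPN. They were ZBTB16 (-1.38, limma adjusted p = 0.0207), a zinc finger factor, and ERRFI1 (-1.13, 0.0458), an inhibitor of the EGF receptor that ERK signalling induces as well. ZBTB16 was higher in stiff col than in stiff IPN (1.64, limma adjusted p = 0.00866). Between the trials 4 of the 8 were called, all lower in replicate 2, where 27.1% of all genes were called (14.4% as lower). The largest changes were TSC22D3 at -2.22 (limma adjusted p = 0.0116) and KLF9 at -1.50 (0.00172). TSC22D3 was at 13584 and 1737 normalized counts in the soft IPNs but at 2392 and 2280 in the stiff IPNs, so stiff IPN did not share its shift. The part of the glucocorticoid response genes in the DUSP1 differences was not tested.

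Markers of other cell types and of the epithelium also moved. The 12 markers of other cell types summed to 5629 and 3127 normalized counts in the soft IPNs, 2313 and 1447 in the stiff IPNs, 6006 and 2137 in soft col:rBM, and 5854 and 2318 in stiff col. That sum follows CD68, a lysosomal protein of macrophages and also of other cells, which ran from 324 to 5017 and was lower in the stiff IPNs (-2.24 against soft IPN, limma adjusted p = 0.0127 with the block). The blood cell marker PTPRC was at 0 in all libraries, and the 11 markers without CD68 summed to 1093 and 1123 in the stiff IPNs against 1407 and 1035 in the soft IPNs. Of the epithelial markers CDH1 was higher in stiff IPN (0.91, limma adjusted p = 0.0377 with the block), and of the basal ones KRT17 was higher (1.88, 0.00671) and ITGB4 lower (-1.45, 0.0293). The part of these markers in the differences of the 10 genes was not tested.

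**Figure D4:**
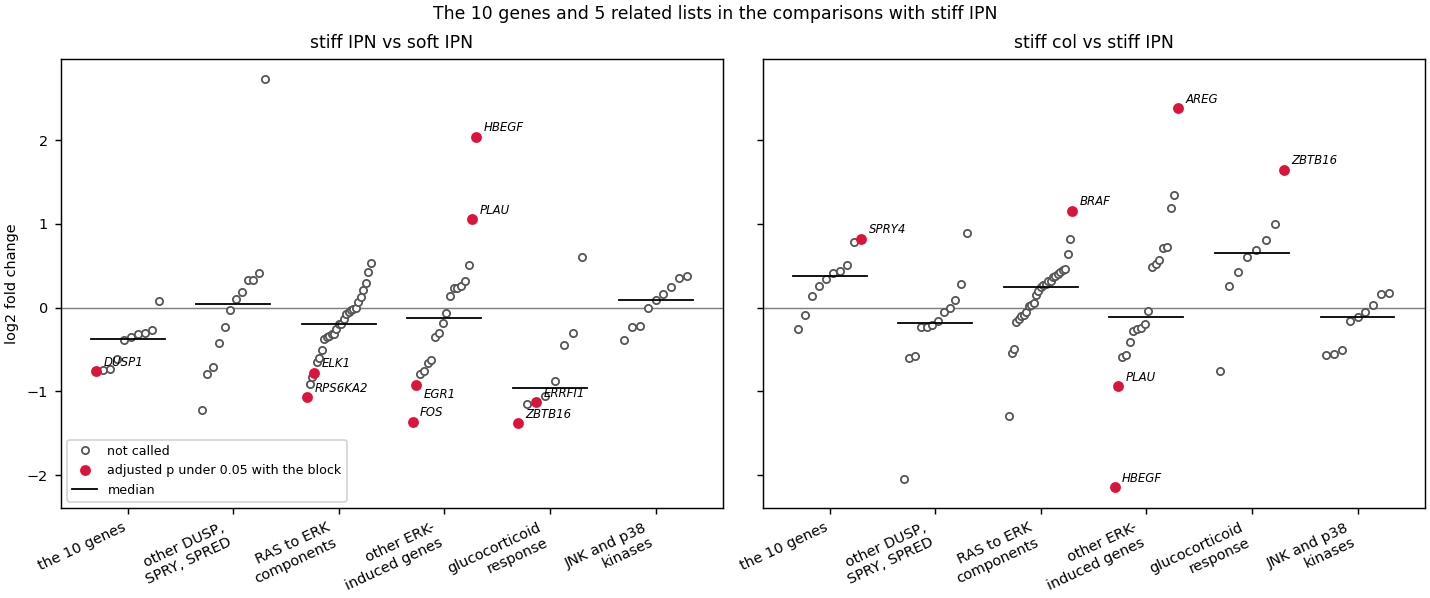
Log2 fold changes of the 10 genes and of 5 related lists from soft to stiff IPN and from stiff IPN to stiff col. Each circle is a gene, filled where it was called with the replicate block, and lines are medians. The 10 genes have a median of -0.37 between the IPNs and 0.38 from stiff IPN to stiff col, and the called genes of the ERK-induced list lie on both sides of 0.

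The profile of each gene over the 8 libraries was also compared with the others by the root mean square (RMS) difference of centred log2 values, with no test. DUSP1 and SPRY4 were each other's nearest among the 10 at an RMS of 0.151, and DUSP5 and SPRY2 were at 0.186, while ETV5 and SPRY2 were the farthest apart at 0.904. PHLDA1 had no member nearer than ETV4 at 0.308. Among 9951 other genes the nearest to DUSP1 was PARP3 at 0.0815, followed by MYL6B and XYLT2, and the nearest to SPRY4 was POLM at 0.0894, followed by GBF1 and CHPF2. For the genes called between the trials, the nearest were BLVRB to DUSP5, NLGN2 to SPRY2, AIG1 to ETV4, PLAGL2 to ETV5 and NRP2 to PHLDA1. The nearest to the mean profile of the 10 genes was DENND5A at 0.0462. These profiles rest on 8 libraries that share gels and trials, so nearness here is a description only.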

How the data were processed

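RNA-seq libraries of MCF10A cells in 4 hydrogels (2 per gel) were used, from 1 table of 25369 rows and 8 value columns. Per the labels, the authors' tools were Trim Galore 0.3.3, TopHat2 2.0.13, SAMtools 1.1, HTSeq, DESeq2 and R 3.2.0 with hg19, while the methods name Bowtie2 as the aligner. Neither the gene annotation nor the strand setting is given in the sources used here. The deposited values are a signal, read counts that the authors divided by 1 factor per library and rounded, called normalized counts here. Because the values are already scaled and rounded, no count model was run. Rows whose symbols had turned into dates (28, at most 0.179% of a library) were left out.

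Genes with at least 10 normalized counts in at least 2 libraries (13349) were fitted as log2(normalized count + 1) with limma 3.58.1 (R 4.3.3, statmod 1.5.0), with 1 mean per gel over all 8 libraries, a mean-variance trend and robust moderation. The fit was tested on simulated data in which each gene had the same trial shift in all gels. It therefore does not show how the block behaves where the shift differs between gels. Differences on this scale slightly understate the change of low genes. P values were adjusted by Benjamini-Hochberg across those genes, with a threshold of 0.05. The replicate numbers were checked as pairs: the differences between replicate 2 and 1 correlated across genes in 6 of 6 pairs of gels. The correlation of stiff IPN was weaker (r 0.278 with soft IPN, 0.394 with soft col:rBM and 0.399 with stiff col) than that of the other pairs (0.654 to 0.819). The first principal component (47.4% of the variance) separated the replicates within each gel, so the trial was also fitted as a block. The block takes 1 shift per gene as shared by all gels, and stiff IPN shared it least. With 2 libraries per gel, p values measure only the spread between these libraries.

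The 10 genes and the lists were chosen with earlier results of these data known. Named beside the 10 were, per list and comparison, up to 3 genes that passed the threshold in either fit, the genes with the nearest profiles (3 each, mean of at least 100 normalized counts) and some other phosphatase and Sprouty genes by level. EGR1, KRT17, ITGB4, CDH1 and CD68 were named after their values were seen. Positions are from GENCODE lifted to hg19 and upstream sequences from RefSeq (GRCh38.p14). Alternatives were other scalings, filters and pseudocounts, the block, 2 gels only, and leaving out each library. Python 3.11.15, numpy 2.4.6, pandas 2.3.3 and matplotlib 3.10.9 were used for tables and plots.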

Additional observations from a re-analysis of the deposited data

How the results depend on the processing

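The trial, as a replicate block in which same-numbered libraries are paired, was the setting that changed most results. With the block 511 genes were called between stiff and soft IPN, 330 from stiff IPN to stiff col, 2 for the difference of stiffness effects and 208 for any difference among gels, against 0 in each without it. Among the 10 genes it called 1 (DUSP1) and 1 (SPRY4) in the first and second of these comparisons and changed no other call of a gene among them. Also tried were 2 settings chosen after seeing the data: the block with each library left out and the block in a fit of only the gels compared. The latter called 300 genes between the IPNs, 261 from stiff IPN to stiff col, 972 between the collagen gels (with 1 of the 10, DUSP6) and 46 between the soft gels, where the fit without the block on 2 gels called 2 genes between the IPNs. The blocked fit of only the gels compared called 0 of the 10 in the comparisons with stiff IPN, so the calls of DUSP1 (adjusted p = 0.0894 from limma) and SPRY4 (adjusted p = 0.130) were lost. A pseudocount of 5 called 4 genes from stiff IPN to stiff col. Other scalings, filters and pseudocounts turned the sign of none of the 10 genes in the comparisons with stiff IPN.

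Leaving out 1 library at a time without the block gave 0 to 5 called genes from stiff IPN to stiff col and moved the median of the 10 genes between -0.65 and -0.20 from soft to stiff IPN, between 0.058 and 0.73 from stiff IPN to stiff col, between -0.32 and 0.22 between the collagen gels, between -0.28 and 0.14 between the soft gels, and between 0.092 and 0.63 for the difference of stiffness effects. From soft to stiff IPN the log2 fold change ran from -0.93 to 0.15 for SPRY2, -0.63 to 0.11 for SPRED1, -0.72 to 0.11 for ETV5 and -0.61 to 0.78 for PHLDA1. From stiff IPN to stiff col it ran from -0.21 to 1.23 for DUSP5, -0.24 to 1.06 for DUSP6, -0.32 to 1.20 for SPRY2, -0.024 to 0.71 for SPRED1, -0.094 to 0.38 for ETV4, -0.050 to 0.57 for ETV5 and -0.78 to 0.61 for PHLDA1. Between the collagen gels it ran from -0.32 to 0.49 for DUSP1 and from -0.40 to 0.23 for SPRY4, and between the soft gels from -0.32 to 0.21 for DUSP1. For PHLDA1 the difference of stiffness effects ran from -0.93 to 0.46.

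With the block, leaving out 1 library gave 0 to 4 of the 10 genes and 0 to 2686 of all genes from soft to stiff IPN, 0 to 5 and 36 to 2212 from stiff IPN to stiff col, and 0 to 2 of the 10 for the difference of stiffness effects. Between the trials, leaving out 1 library gave calls for 3 to 8 of the 10 and 1211 to 5830 of all genes, with DUSP6 from -0.41 to 0.14 and SPRED1 from -0.092 to 0.30. The cause of these changes was not tested beyond the libraries left out. DUSP1 and SPRY4 kept their sign in the comparisons with stiff IPN under each alternative run. Whether depth or the number of libraries limits the calls was not tested.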
